A study of Mus musculus with 22 samples.

Results

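Oligoadenylate synthetases make up a family of interferon-induced enzymes, and 5 mouse genes of the family, Oas1a, Oas2, Oas3, Oasl1 and Oasl2, were described here in liver. The members were all probe sets that the array annotation gives to these 5 symbols. Each gene had 1 probe set, so the members were 5 of 45101 probe sets and 5 of the 18194 genes that could be named. Livers of 22 mice were profiled, each on its own Affymetrix array. At 5 weeks of age there were 4 Trim24-/- Rara+/- livers (animals 54, 66, 73 and 82), 4 Trim24-/- livers (animals 1, 6, 8 and 37) and 4 wild-type (WT) livers (animals 2, 44, 45 and 90). At 14 weeks there were 5 Trim24-/- livers and 5 WT livers, from other mice than those at 5 weeks. Trim24 encodes a nuclear receptor cofactor that restrains retinoic acid receptor signalling, and Rara encodes retinoic acid receptor alpha. Trim24-/- mice lack the gene throughout the body by gene disruption, and Trim24-/- Rara+/- mice carry in addition a deletion of 1 Rara allele. All mice came from crosses of both mutant lines on a hybrid C57BL/6 and 129/Sv background, so genotype groups can also differ in linked strain alleles. No group with Rara+/- and intact Trim24 was analysed here, and Trim24-/- Rara+/- livers were analysed at 5 weeks only.

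The synthetases sense double-stranded RNA. On binding it, the active members join ATP into short 2'-5'-linked oligoadenylates, which act as a second messenger in the antiviral response. Their genes are transcribed when type I interferon, through its receptors, activates the factor ISGF3, which includes Stat2 and Irf9 and binds the interferon-stimulated response element (ISRE) in promoters. In liver, hepatocytes and resident macrophages can both respond to interferon, and Trim24-/- mice are known for liver tumours.

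The promoters of the members were compared because all 5 genes are textbook interferon targets. RefSeq sequences of build GRCm38.p6 were at hand for 4 of the 5 members, and Oas2 was missing. Each stretch holds the 120 bases just before the annotated gene start, 5' to 3' on the strand of the gene. Capitals mark every match to the ISRE letters GAAANNGAAA on either strand. The stretches are chr5:120907526-120907645 on the minus strand for Oas1a, chr5:120777660-120777779 on the minus strand for Oas3, chr5:114923120-114923239 on the plus strand for Oasl1 and chr5:114896814-114896933 on the plus strand for Oasl2.
Oas1a: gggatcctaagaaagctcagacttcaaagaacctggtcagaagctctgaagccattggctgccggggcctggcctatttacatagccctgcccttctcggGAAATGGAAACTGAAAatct
Oas3: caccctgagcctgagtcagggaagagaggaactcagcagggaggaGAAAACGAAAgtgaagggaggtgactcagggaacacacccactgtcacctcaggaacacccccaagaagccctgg
Oasl1: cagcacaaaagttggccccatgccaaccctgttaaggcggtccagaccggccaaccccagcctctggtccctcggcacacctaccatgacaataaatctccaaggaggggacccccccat
Oasl2: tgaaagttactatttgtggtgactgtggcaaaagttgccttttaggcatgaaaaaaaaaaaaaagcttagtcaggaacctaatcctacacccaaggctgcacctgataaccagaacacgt
The capitals in Oas1a are a pair of overlapping matches that begin 20 and 14 bases before the start. Oas3 has a single match that begins 75 bases before the start. No match lay in the full windows of Oasl1 and Oasl2, which run from 250 bases before to 50 bases after the start. Over 32851 promoters of that length, 1131 (3.44%) held such a match. A GAS motif, TTCNNNGAA, an element known from interferon-gamma targets, lay 98 bases before the start of Oas1a and in none of the other 3 windows, and 2726 promoters (8.30%) held one. The retinoic acid receptor repeats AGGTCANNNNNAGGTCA and AGGTCANNAGGTCA, searched on both strands, had no match in these 4 windows and 3 matches each over all promoters (0.00913%). Letters this rare could hardly be met in 4 windows, so their absence says nothing on receptor binding. Of 8 family windows searched, those of Oas1c and Oas1g, outside the members, also held ISRE matches. Such matches describe letters in these windows only.

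Signal is the brightness of a probe set on a linear scale, and the deposited values had already been scaled, with a mean of 100.0 on every array once 2% of values were trimmed from each end. The dim part of the arrays still differed between ages. The median signal was 12.6 to 16.1 at 5 weeks and 19.7 to 25.9 at 14 weeks. Probe sets under 16 made up 49.9 to 54.4% at 5 weeks and 37.8 to 45.3% at 14 weeks. Hepatocyte markers were bright on every array, between 2403 and 16497. Within a group, arrays correlated at 0.948 to 0.992 (8334 genes with a mean log2 level above 6). Animals 54, 66 and 82 resembled each other more (0.987 to 0.992) than they resembled animal 73 (0.979 to 0.980), and Trim24-/- animals 1 and 8 correlated at 0.988. Of 3 Trim24 probe sets only the brightest was read here, and it did not show the disruption. Its signal was 399.8 to 473 in Trim24-/- Rara+/- livers, 305 to 488 in Trim24-/- livers and 191 to 459 in WT livers at 5 weeks. At 14 weeks it was 185 to 336 in Trim24-/- livers against 143 to 205 in WT livers. Rara read 8.57 to 31.6 in Trim24-/- Rara+/- livers against 2.74 to 27.0 in WT livers. The position of these probe sets relative to the disrupted sequence was not known here, so they do not check the genotypes, which rest on the labels. All 12 arrays at 5 weeks had bright Xist (948 to 2169) and dim Eif2s3y (0.350 to 6.59), and all 10 at 14 weeks had dim Xist (13.4 to 44.5) and bright Eif2s3y (245 to 344), so age, the sex-linked pattern and any batch cannot be told apart. Each label names a separate animal.

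At 5 weeks, 4 of the 5 genes were higher in Trim24-/- livers than in WT livers: Oas1a, Oas3, Oasl1 and Oasl2. The exception was Oas2. The comparison asks what loss of Trim24 does to liver transcripts at that age. Differences are given on the scale log2(signal + 16), with limma's fit over the 12 arrays at 5 weeks, and a gene was called when the Benjamini-Hochberg adjusted p over all 18194 genes was under 0.05. Of all genes tested, 0.473% were called higher in this comparison. The median difference was 1.61 over the 5 members and -0.01 over all genes. The members were chosen with earlier results of these data known, so these contrasts describe the family and do not test it.

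Oas1a makes oligoadenylates and is one of the short synthetases. Its signal was 785, 453, 369.5 and 285 in Trim24-/- livers, against 106, 105, 94.1 and 70.2 in WT livers. The lowest Trim24-/- liver stood above the highest WT liver. The group means were 473 ± 219 and 93.8 ± 16.5 (SD, n = 4 each), and the log2 difference was 2.07 ± 0.30 (SE, 95% interval 1.42 to 2.73, 4.20-fold on this scale, limma adjusted p = 0.0142).

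Oas3, the largest synthetase, was dim. Its signal was 40.4, 29.8, 25.97 and 15.1 in Trim24-/- livers, against 7.25, 6.91, 5.49 and 4.70 in WT livers. The groups did not overlap, and all 4 WT values lay under the pseudocount of 16. The log2 difference was 0.96 ± 0.15 (95% interval 0.63 to 1.29, 1.94-fold, limma adjusted p = 0.0194). For so dim a gene the pseudocount sets the size: the difference was 1.96 with a pseudocount of 1 and 0.38 with one of 64, and both were called.

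Oasl1 has no synthetase activity and in mice restrains the translation of Irf7, the factor that drives interferon genes. Its signal was 313, 246, 111 and 82.7 in Trim24-/- livers, against 52.4, 37.6, 29.8 and 16.5 in WT livers. All Trim24-/- values lay above all WT values, and animals 1 and 8 were the highest. The log2 difference was 1.91 ± 0.34 (95% interval 1.16 to 2.65, 3.75-fold, limma adjusted p = 0.0310).

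Oasl2 is a synthetase-like protein that ends in ubiquitin-like domains and, unlike Oasl1, keeps synthetase activity. Its signal was 270.5, 190.2, 177 and 78.5 in Trim24-/- livers, against 70.4, 44.7, 37.8 and 28.0 in WT livers. The gap between the groups was narrow, from 78.5 in animal 6 to 70.4 in WT animal 2. The log2 difference was 1.61 ± 0.31 (95% interval 0.94 to 2.28, 3.05-fold, limma adjusted p = 0.0387).

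Oas2, a synthetase built of repeated OAS units, read 60.4, 45.5, 35.9 and 25.9 in Trim24-/- livers, against 38.2, 32.9, 31.7 and 21.4 in WT livers. The groups overlapped. The log2 difference was 0.28 ± 0.21 (95% interval -0.19 to 0.74, limma adjusted p = 0.698).

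**Figure D1:**
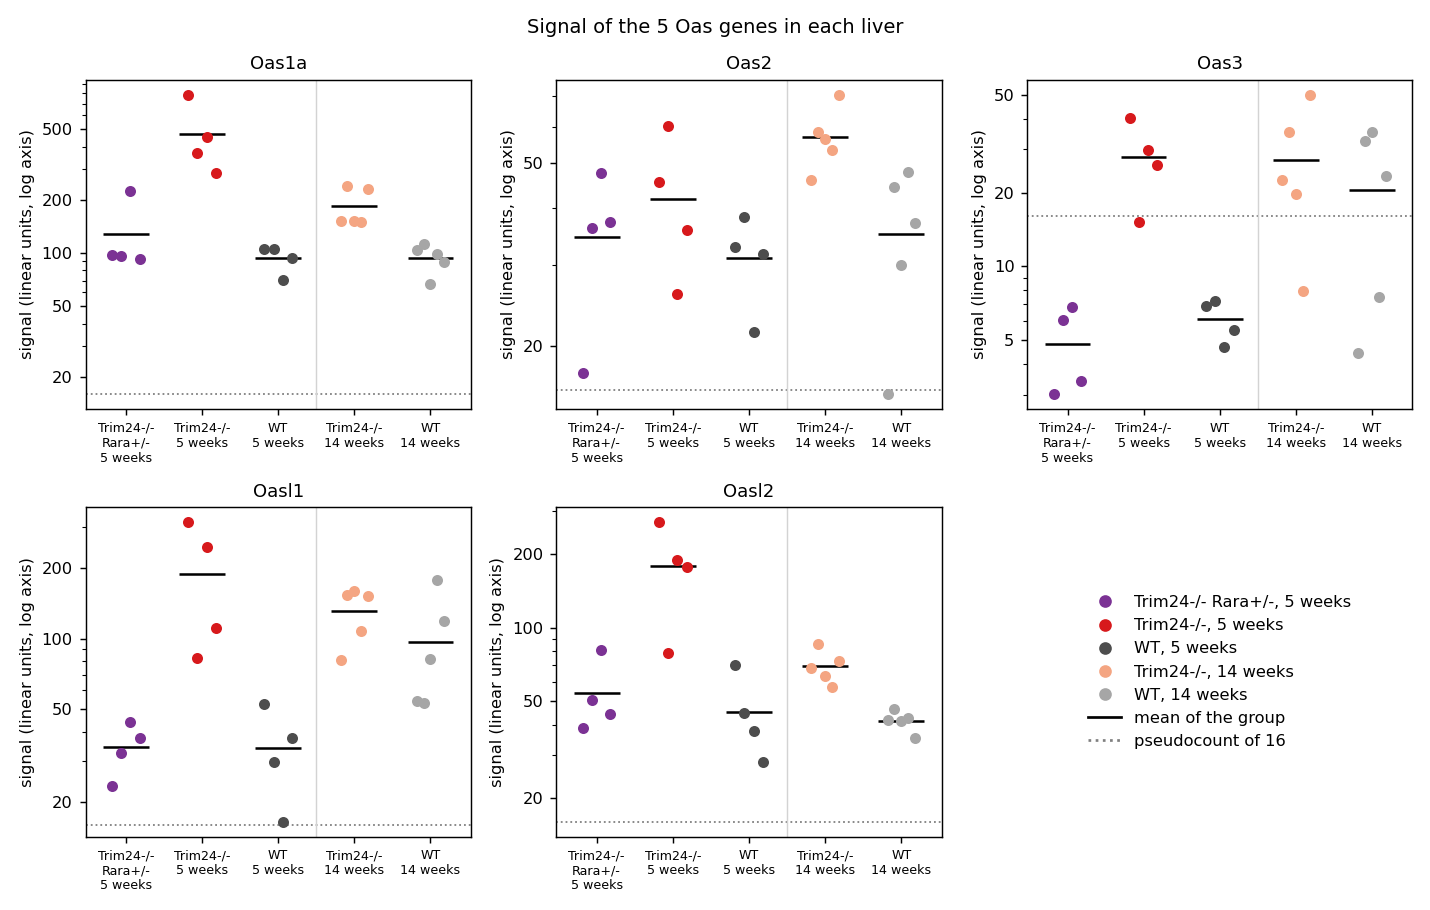
Signal (linear units on a log axis) of each of the 5 genes in every liver, with groups along the horizontal axis, points for livers, black lines for group means and a dotted line at the pseudocount of 16. At 5 weeks the 4 Trim24-/- livers lie above the 4 WT livers for Oas1a, Oas3, Oasl1 and Oasl2, and for Oas2 the groups overlap (25.9 to 60.4 against 21.4 to 38.2).

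The plot of signals by liver shows the 4 genes whose Trim24-/- and WT values did not overlap at 5 weeks. Over all genes, 3% had Trim24-/- values wholly above WT values. The calls depended on which livers entered the fit. No member was called without Trim24-/- animal 8 or without WT animal 45 (Oas1a adjusted p = 0.0514 and 0.0591 with limma), and 2, Oas1a and Oas3, were called without any 1 of Trim24-/- animal 1, WT animal 44 or Trim24-/- Rara+/- animals 54, 66 and 82. Oasl2 alone was lost without Trim24-/- animal 37 or without WT animal 90 (adjusted p = 0.0758 and 0.0728 with limma). Without both Trim24-/- animals 1 and 8 no member was called, and the log2 differences were 1.65 for Oas1a, 0.71 for Oas3, 1.21 for Oasl1, 1.19 for Oasl2 and 0.43 for Oas2.

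Markers of other liver cells were read beside these genes. In bulk liver, fewer cells of a type and less RNA per cell cannot be told apart. Of 14 macrophage and Kupffer cell markers, 1 was called higher in Trim24-/- livers at 5 weeks, the pore-forming gene Mpeg1 (1.69 ± 0.30, limma adjusted p = 0.0275), 12 of 14 estimates were above 0 and the median was 0.35. Their summed signal was 6318 to 10318 in Trim24-/- Rara+/- livers, 6470 to 12916 in Trim24-/- livers and 4705 to 9496 in WT livers. None of 9 T and NK cell markers was called, and 6 of them, among them Cd3e, Cd3d and Cd3g, averaged under 16. The T and NK sum was nevertheless 44.4 to 144 in Trim24-/- Rara+/- livers, 95.7 to 261 in Trim24-/- livers and 76.0 to 83.6 in WT livers, so Trim24-/- and WT livers did not overlap. Most of that gap came from the cytotoxic genes Gzmb (mean 41.6 in Trim24-/- livers against 13.3 in WT livers), Gzma (39.8 against 13.7) and Nkg7 (18.3 against 4.62). Of the T cell markers, Cd3e (19.2 against 9.93), Cd3d (7.85 against 4.25) and Cd8a (12.7 against 9.37) were also higher in mean. Cd3g (14.6 against 13.9), Cd2 (8.17 against 7.96) and Cd4 (3.26 against 3.04) were close in mean. Of the 9 estimates, 8 were above 0. The sum of 3 plasmacytoid dendritic cell markers was 32.4 to 81.0 in Trim24-/- Rara+/- livers, 37.8 to 119 in Trim24-/- livers and 19.6 to 35.7 in WT livers, with the same gap between Trim24-/- and WT. That gap came from Ly6d alone (mean 63.7 in Trim24-/- livers against 17.2 in WT livers). Siglech and Ccr9, the defining markers, averaged under 16 over all arrays, and their means were 7.05 against 6.68 for Siglech and 0.635 against 6.59 for Ccr9. Sums in Trim24-/- against WT livers overlapped for B cells (54.7 to 57.8 against 21.5 to 63.2), neutrophils (49.4 to 353 against 52.8 to 213) and endothelium (1173 to 1938 against 1385 to 1988). No marker was at 0 on every array. The part of these cells in the result was not tested.

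Rara dosage on top of Trim24 loss was examined next. Of the 5 genes, 0 were called in Trim24-/- Rara+/- against WT livers, with limma adjusted p from 0.885 to 0.991 and no unadjusted p under 0.05. Over all genes 0.0495% were called higher in that comparison. Oas1a read 224, 97.3, 96.4 and 92.1 in Trim24-/- Rara+/- livers, and animal 73 was the only one above the WT range of 70.2 to 106. Its log2 difference from WT was 0.31 ± 0.30 (95% interval -0.34 to 0.97). The intervals were -0.42 to 0.24 for Oas3, -0.70 to 0.79 for Oasl1, -0.47 to 0.86 for Oasl2 and -0.38 to 0.55 for Oas2, so differences of the size seen in Trim24-/- livers on this scale lay outside them for Oas1a, Oas3, Oasl1 and Oasl2.

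Against Trim24-/- livers, Oas1a and Oas3 were lower in Trim24-/- Rara+/- livers, 2 of the 5 genes called where 0.104% of all genes were called lower. It shares the Trim24-/- livers with the comparison of Trim24-/- with WT and the Trim24-/- Rara+/- livers with that of Trim24-/- Rara+/- with WT, and all 3 come from 1 fit. Oas1a differed by -1.76 ± 0.30 (95% interval -2.42 to -1.11, limma adjusted p = 0.0461). Oas3 read 6.85, 6.06, 3.40 and 3.02 in Trim24-/- Rara+/- livers, all under the lowest Trim24-/- liver at 15.1, and differed by -1.05 ± 0.15 (95% interval -1.38 to -0.71, limma adjusted p = 0.0275).

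Oasl1 read 43.99, 37.7, 32.5 and 23.3 in Trim24-/- Rara+/- livers, without overlap with the Trim24-/- range of 82.7 to 313, yet narrowly missed the threshold (-1.87 ± 0.34, limma adjusted p = 0.0591). Oasl2 read 81.1, 50.5, 44.4 and 38.9, and animal 73 at 81.1 lay above Trim24-/- animal 6 at 78.5. Its difference was -1.41 ± 0.31 (limma adjusted p = 0.0876). Oas2 read 47.7, 37.3, 36.1 and 17.5, inside and below the Trim24-/- range, with a difference of -0.20 ± 0.21 (limma adjusted p = 0.801). In all, 3 of the 5 genes had Trim24-/- Rara+/- values wholly below Trim24-/- values, as did 5.13% of all genes. No member was called in this comparison without any 1 of Trim24-/- animals 1 and 8 or Trim24-/- Rara+/- animals 54, 66 and 82, whereas 3 were called without Trim24-/- animal 6 or 37, and 1, Oas3, without any 1 WT liver. Over 27 alternatives the count ran from 0 to 4. It was 4 with array weights. It was 0 with a pseudocount of 1, in a fit of only the compared groups, or with animals 54, 66 and 82 or animals 1 and 8 averaged.

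**Figure D2:**
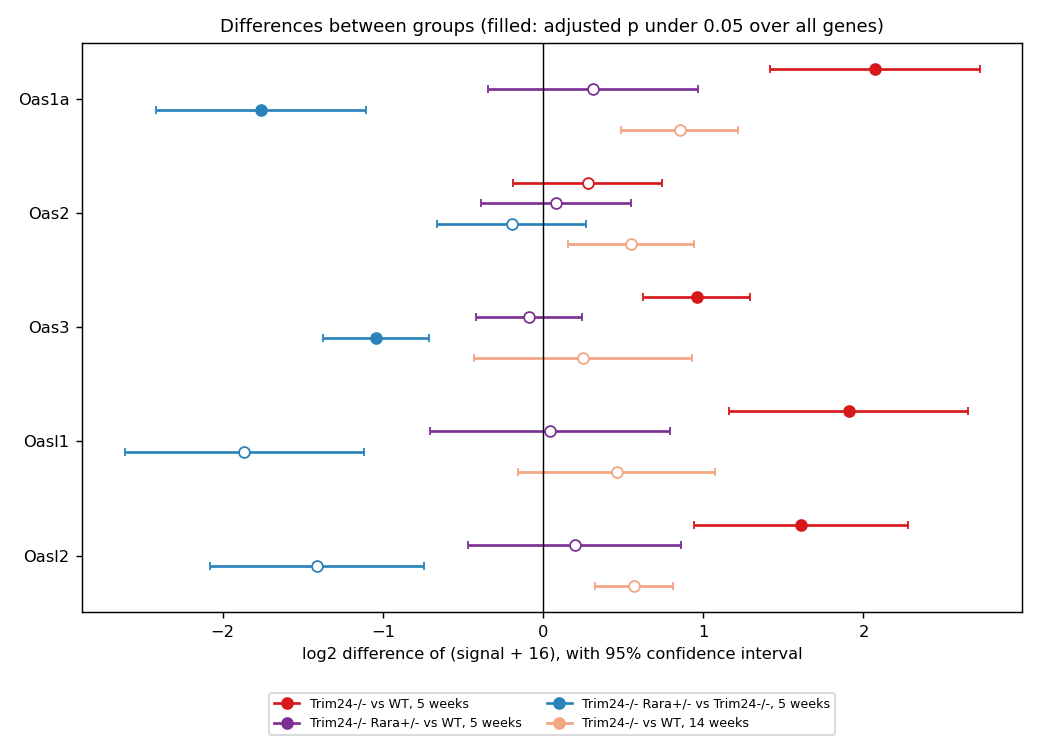
Difference between groups for each gene on the scale log2(signal + 16), with the first named group minus the second, points for estimates and bars for 95% confidence intervals; filled points passed an adjusted p under 0.05. Filled points are Oas1a, Oas3, Oasl1 and Oasl2 for Trim24-/- against WT at 5 weeks (0.96 to 2.07), and Oas1a and Oas3 for Trim24-/- Rara+/- against Trim24-/- (-1.76 and -1.05).

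The plot of differences sets the 4 comparisons side by side. At 14 weeks 0 of the 5 genes were called in Trim24-/- against WT livers, where 0.181% of all genes were called higher. All 5 estimates were above 0 with a median of 0.55, against 0.00 over all genes. In limma 3 of the 5 had an unadjusted p under 0.05, as did 1498 of all 18194 genes. Oas1a read 238, 229, 152, 152 and 151 in Trim24-/- livers, against 112, 104, 98.2, 89.0 and 66.8 in WT livers. Oasl2 read 85.8, 73.2, 68.6, 63.6 and 57.0 in Trim24-/- livers, against 46.3, 42.6, 42.0, 41.5 and 35.3 in WT livers. For both genes every Trim24-/- liver stood above every WT liver, which held for 1.07% of all genes. Their log2 differences were 0.85 ± 0.17 (95% interval 0.49 to 1.22) for Oas1a and 0.57 ± 0.11 (95% interval 0.32 to 0.81) for Oasl2, each with a limma adjusted p of 0.0787. Each was called in only 2 of 20 alternatives. In 1 of these the fit was limited to genes above the median level (adjusted p = 0.0294 and 0.0299 with limma). That level was taken over all 22 arrays, Trim24-/- livers included.

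Oas2 read 70.6, 58.4, 56.6, 53.5 and 46.0 in Trim24-/- livers at 14 weeks, against 48.0, 44.5, 37.1, 30.0 and 15.7 in WT livers. Only the lowest Trim24-/- liver fell inside the WT range, and the difference was 0.55 ± 0.18 (limma adjusted p = 0.380). Oas3 and Oasl1 spread widely in WT livers at this age. Oas3 read 50.1, 35.3, 22.4, 19.6 and 7.91 in Trim24-/- livers, against 35.3, 32.3, 23.4, 7.53 and 4.42 in WT livers, a difference of 0.25 ± 0.31 (limma adjusted p = 0.890). Oasl1 read 159, 154, 152, 107 and 81.2 in Trim24-/- livers, against 177, 118, 81.8, 54.05 and 52.8 in WT livers, a difference of 0.46 ± 0.28 (limma adjusted p = 0.733). The groups overlapped for both. At this age the macrophage marker sum was 5015 to 9410 in Trim24-/- livers against 4243 to 5634 in WT livers. Of the 14 markers 0 were called, 13 estimates were above 0 and the median was 0.43. In limma 9 of the 14 had an unadjusted p under 0.05, as did 1498 of all 18194 genes. None of the 9 T and NK cell markers was called, and 1 had an unadjusted p under 0.05 in limma. Over all arrays 6 of the 9 averaged under 16. The T and NK sum was 156 to 161 in Trim24-/- livers against 122 to 139 in WT livers, without overlap. Gzmb made up most of that gap (mean 20.9 in Trim24-/- livers against 3.91 in WT livers), and Nkg7 (16.2 against 19.2) and Cd2 (9.16 against 12.2) lay the other way. The plasmacytoid dendritic cell sum was 36.4 to 58.3 in 4 Trim24-/- livers and 241 in the other one, where Ly6d read 203, against 35.4 to 51.8 in WT livers. How often sums of other genes show no overlap was not computed at either age. The part of these markers in the result was not tested.

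The gap between Trim24-/- and WT livers was compared between ages as (14 weeks) minus (5 weeks) in a fit of all 22 arrays. None of the 5 genes was called, where 0.0055% of all genes were called lower. The estimates were -1.22 ± 0.36 for Oas1a (unadjusted p = 0.0025, limma adjusted p = 0.417), -1.45 ± 0.47 for Oasl1 (limma adjusted p = 0.509) and -1.04 ± 0.33 for Oasl2 (limma adjusted p = 0.506), and these 3 had an unadjusted p under 0.05. Over all genes, 1163 of 18194 had an unadjusted p under 0.05 in this limma fit. The estimates were -0.71 ± 0.38 for Oas3 and 0.27 ± 0.29 for Oas2. A smaller gap at 14 weeks was therefore not shown for any member. The level of dim probe sets also differed between ages, and its part in these estimates was not tested.

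By group mean, Oas1a was ordered Trim24-/- at 5 weeks (473 ± 219), Trim24-/- at 14 weeks (184 ± 44.9), Trim24-/- Rara+/- at 5 weeks (127 ± 64.4), and WT at 14 weeks (94.0 ± 17.4) and at 5 weeks (93.8 ± 16.5, SD, n = 4 or 5). Each range overlapped its neighbour except the first, which lay above the second. For Oasl1 the order was Trim24-/- at 5 weeks (188 ± 109.7), Trim24-/- at 14 weeks (131 ± 34.7), WT at 14 weeks (96.9 ± 52.3), Trim24-/- Rara+/- at 5 weeks (34.4 ± 8.74) and WT at 5 weeks (34.1 ± 15.0). The ranges overlapped at each step but the one from WT at 14 weeks to Trim24-/- Rara+/-. The Oasl1 ranges of WT livers fell just short of overlap between 5 weeks (16.5 to 52.4) and 14 weeks (52.8 to 177). The share of all genes without overlap between groups of different ages was not computed. The gaps between ages given here for Oas1a and Oasl1 are therefore not read as traits of these genes. In each of them age cannot be told apart from the sex-linked pattern and any batch. Oasl2 ran Trim24-/- at 5 weeks (179 ± 78.8), Trim24-/- at 14 weeks (69.6 ± 10.9), Trim24-/- Rara+/- at 5 weeks (53.7 ± 18.8), WT at 5 weeks (45.2 ± 18.1) and WT at 14 weeks (41.5 ± 3.97), and each range overlapped its neighbour. Oas2 was ordered Trim24-/- at 14 weeks (57.0 ± 8.96), Trim24-/- at 5 weeks (41.9 ± 14.7), WT at 14 weeks (35.1 ± 12.9), Trim24-/- Rara+/- (34.6 ± 12.6) and WT at 5 weeks (31.1 ± 7.02), with overlap at each step. Oas3 averaged 27.8 ± 10.4 in Trim24-/- livers at 5 weeks and 27.1 ± 16.1 in those at 14 weeks, then 20.6 ± 14.1 in WT livers at 14 weeks, with overlap among these 3. It averaged 4.83 ± 1.91 in Trim24-/- Rara+/- livers and 6.09 ± 1.20 in WT livers at 5 weeks, which also overlapped. Because fewer probe sets lay under 16 on the arrays at 14 weeks, levels this dim cannot be compared between ages.

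The members also varied from mouse to mouse. Averaged over the 5 genes and taken against the WT mean of the same age, Trim24-/- animal 1 stood highest at 1.93 on the log2 scale, ahead of animals 8 (1.45), 37 (1.13) and 6 (0.95). Animal 1 had the highest Oas1a, Oas3, Oasl1 and Oasl2 of its group, whereas Oas2 was highest in animal 6. Among Trim24-/- Rara+/- livers, animal 73 averaged 0.53 and the other 3 lay between -0.21 and 0.08. At 14 weeks the Trim24-/- livers ran between 0.23 and 0.85, all 5 above the WT mean.

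**Figure D3:**
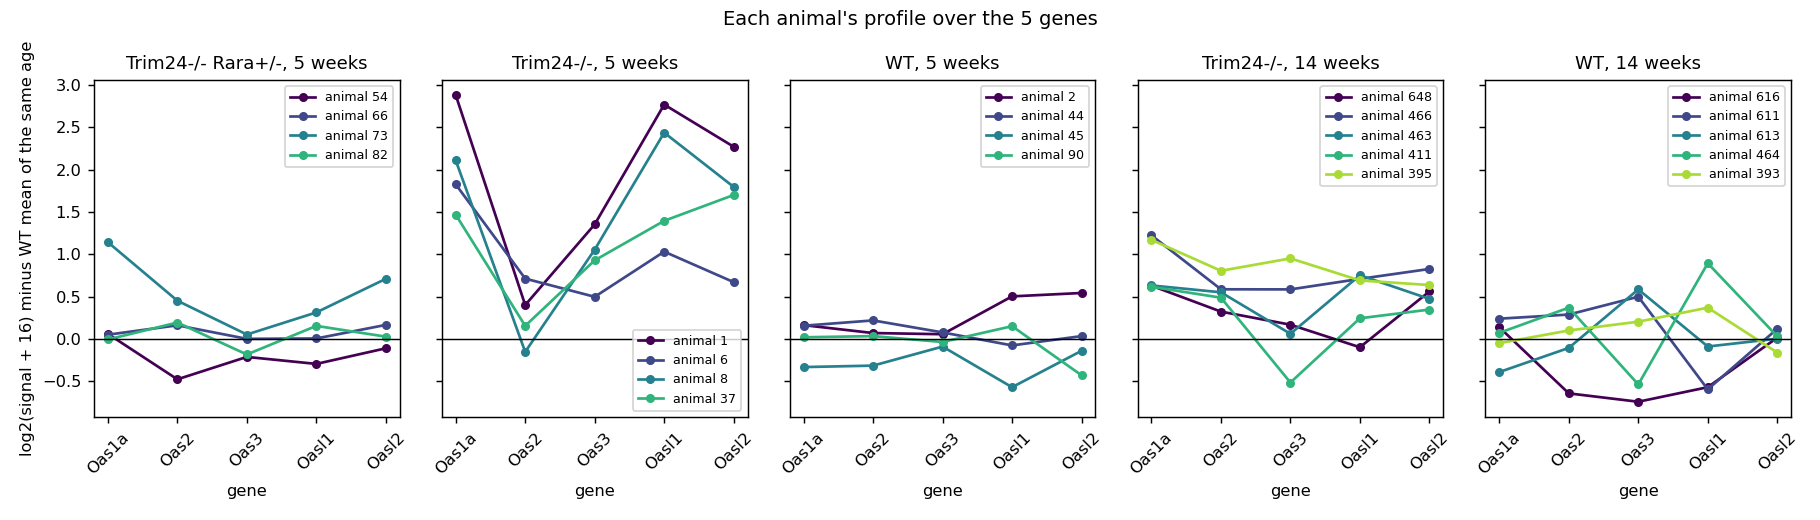
Profile of each liver over the 5 genes, as log2(signal + 16) minus the WT mean of the same age, with 1 line per animal and 1 panel per group. Trim24-/- animals 1 and 8 have the highest lines at 5 weeks, with a dip at Oas2 (0.40 and -0.15), and animal 73 stands above the other Trim24-/- Rara+/- livers.

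The profiles of single livers were set against each other gene by gene, over 22 livers with each group's mean subtracted, for 10 pairs of genes. Pearson's r was 0.25 to 0.63 for the 6 pairs without Oas2 and 0.03 to 0.35 for the 4 pairs with it. One pair passed after adjustment over the 10 in both measures, Oas3 with Oasl2 (r = 0.44, permutation p = 0.00247, adjusted p = 0.0247, Spearman's rho = 0.58, permutation adjusted p = 0.0145, r = 0.49 without the 2 livers farthest from the median). Oas1a with Oasl2 passed by rank only (r = 0.63, permutation adjusted p = 0.0763, rho = 0.66, adjusted p = 0.0145, r = 0.40 without the 2 farthest livers). Among the 12 livers at 5 weeks r was 0.64 to 0.89 for pairs without Oas2 and -0.04 to 0.40 for pairs with it. Among the 10 livers at 14 weeks it was -0.01 to 0.71 and 0.17 to 0.60 for the same sets of pairs. At 5 weeks the SD of the log2 level was largest in Trim24-/- livers for all members but Oas2. In Trim24-/-, Trim24-/- Rara+/- and WT livers it was 0.83, 0.26 and 0.45 for Oasl1, and 0.67, 0.36 and 0.41 for Oasl2. It was 0.36, 0.13 and 0.08 for Oas3, and 0.60, 0.56 and 0.23 for Oas1a. Animals 1 and 8, the highest Trim24-/- livers for these genes, had arrays that correlated at 0.988.

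The other genes of the family were near the floor of the array. Of 7 further Oas1 genes, Oas1b, Oas1c, Oas1e, Oas1f and Oas1h were measured, each averaged under 16 over the 22 arrays, and 0 of 5 were called in any comparison. Oas1d appears only in a probe set shared with Oas1e, and the level of Oas1g was not analysed here. Whether the Oas1a probe set also reads the closely related Oas1g was not tested. Oas1b, which is a pseudogene in the reference strain, read 21.3, 18.9, 2.01 and 1.94 in Trim24-/- livers, against 3.58, 3.36, 3.05 and 3.03 in WT livers. The bright pair were animals 1 and 8, and the log2 difference was 0.40 ± 0.24 (limma adjusted p = 0.582). Oas1c read 31.2, 20.0, 19.7 and 8.81 in Trim24-/- livers, against 9.35, 8.49, 8.44 and 2.70 in WT livers, with a difference of 0.60 ± 0.19 (limma adjusted p = 0.228). Oas1e was the reverse, at 1.74 to 2.21 in Trim24-/- livers and 2.61 to 10.96 in WT livers, a difference of -0.36 ± 0.11 (limma adjusted p = 0.211). Oas1f and Oas1h differed by 0.25 ± 0.23 and 0.01 ± 0.08.

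Downstream of the synthetases, 3 genes tied to the 2'-5' oligoadenylate pathway were read. Abce1, a ribosome-recycling ATPase, differed by -0.12 ± 0.16 in Trim24-/- against WT livers at 5 weeks. Pde12 and Akap7, which degrade 2'-5' oligoadenylates, differed by -0.03 ± 0.15 and 0.03 ± 0.14. None of the 3 was called in any comparison.

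Other sensors of foreign nucleic acid were read in the same fit, and 1 of 8 was called higher in Trim24-/- livers at 5 weeks. It was Zbp1, a sensor of Z-form nucleic acid that can trigger cell death, at 535, 381, 157 and 147 in Trim24-/- livers against 74.4, 41.6, 28.4 and 28.1 in WT livers, with a log2 difference of 2.31 ± 0.36 (limma adjusted p = 0.0191). The groups did not overlap. The median over the 8 sensors was 0.79. In limma 7 of the 8 had an unadjusted p under 0.05, as did 1972 of all 18194 genes. In Trim24-/- Rara+/- against WT livers 0 of 8 were called with a median of -0.12, and at 14 weeks 0 of 8 with a median of 0.27.

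Of 17 measured genes of interferon receptors and their signalling, 2 were called higher in Trim24-/- livers at 5 weeks, with a median of 0.16. Irf7 read 1490.3, 1294, 464.3 and 457 in Trim24-/- livers, against 258, 219, 163 and 154 in WT livers, a difference of 1.96 ± 0.37 (limma adjusted p = 0.0387). Usp18, which removes the ubiquitin-like modifier Isg15 and damps the interferon receptor, read 1751, 1296, 719 and 507 in Trim24-/- livers, against 273, 211, 201 and 191 in WT livers, a difference of 2.06 ± 0.41 (limma adjusted p = 0.0452). For both genes all Trim24-/- livers lay above all WT livers. Irf9, the DNA-binding part of ISGF3, missed the threshold (0.78 ± 0.17, limma adjusted p = 0.0703), and the receptor chains Ifnar1 and Ifnar2 differed by -0.08 ± 0.12 and -0.02 ± 0.09. At 14 weeks Usp18 alone of the 17 was called (1.17 ± 0.21, limma adjusted p = 0.0469), where none of the members was. In Trim24-/- Rara+/- livers 0 of 17 were called against WT. Interferon genes themselves were dim: 10 of 19 were measured, 8 of the 10 averaged under 16, and 0 were called in any comparison.

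**Figure D4:**
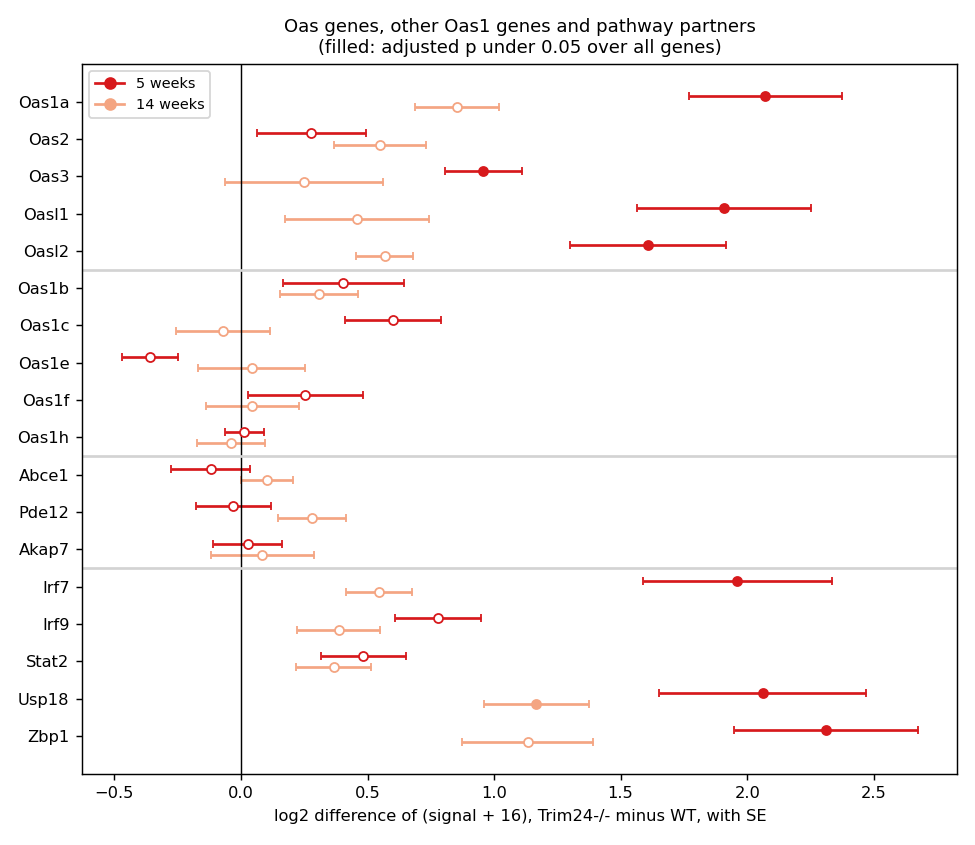
Difference of Trim24-/- minus WT livers on the scale log2(signal + 16) at 5 and 14 weeks, with SE bars, for the 5 genes, 5 further Oas1 genes, 3 genes tied to the 2'-5' oligoadenylate pathway, and 5 interferon pathway genes. Filled points passed an adjusted p under 0.05: Oas1a, Oas3, Oasl1, Oasl2, Irf7, Usp18 and Zbp1 at 5 weeks, and Usp18 at 14 weeks.

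The plot of family genes and partners shows called genes beside genes that were not called, among them the further Oas1 genes, Abce1, Pde12 and Akap7. The genes whose livers varied most like the members were sought among 9093 genes above the median level, by the mean Pearson r to the 5 members over 22 arrays with group means subtracted, as a description without a test. They were Usp18 (mean r 0.588), Cmpk2 (0.579), a mitochondrial nucleotide kinase, Rsad2 (0.570), the antiviral protein viperin, Lgals3bp (0.569), a secreted galectin-binding protein, and Ifit3 (0.565), which binds other Ifit proteins. For each of the 5 genes the lowest r was with Oas2, between 0.10 and 0.33. Cmpk2 averaged 169.6 ± 112 in Trim24-/- livers and 38.2 ± 8.56 in WT livers at 5 weeks (SD, n = 4 each), and Lgals3bp 1058 ± 306 and 481 ± 74.2. Both were called (limma adjusted p = 0.0427 and 0.0363), whereas Rsad2 and Ifit3 were not (limma adjusted p = 0.108 and 0.0954).

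The family lies in clusters on chromosome 5, one of 10 Oas genes, 8 of them with a probe set of their own, and one with Oasl1 and Oasl2. Flanking genes were read to see whether the difference extended beyond the family, by a rule chosen after the members' values were seen: the 3 nearest measured genes on each side of each cluster. None of these 12 genes was called in any of the 4 comparisons. The largest difference between Trim24-/- and WT livers at 5 weeks was 0.44 ± 0.14 for 2210016L21Rik (limma adjusted p = 0.221), next to the Oasl cluster. Ptpn11 and Rpl6, beside the Oas cluster, differed by 0.00 ± 0.14 and -0.08 ± 0.11.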

How the data were processed

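Liver RNA of 22 mice was measured on Affymetrix arrays. Per the labels' protocols, column-purified RNA was amplified in 2 rounds from 100 ng before biotin labelling. The authors deposited probe set intensity values, linear and already scaled, by software not given in the sources used here. Symbols came from GEO's platform annotation (34958 probe sets with 1 symbol, 932 with several, 9211 unlisted), whose genome build is unknown, and the brightest probe set stood for each of 18194 genes. log2(signal + 16) was fitted with limma 3.58.1 (lmFit, eBayes; R 4.3.3), without filter or covariate, and the fit was tested on simulated data. Two-sided permutations (100000, within groups) used numpy 2.4.6 and scipy 1.17.1. Promoters and gene order are RefSeq's for GRCm38.p6. The members and gene lists were chosen with earlier results of these data known. Named beyond the members were Trim24, Rara, every measured Oas1 and oligoadenylate pathway gene, up to 5 called genes per list and the 5 most similar genes; Irf9, Ifnar1, Ifnar2 and the cell type markers were named after their values were seen. Alternatives were other scalings, pseudocounts, filters, probe set rules, fits and left-out arrays. The labels give no batch.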

Additional observations from a re-analysis of the deposited data

Results flagged for a closer look

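Oas1a in Trim24-/- Rara+/- animal 73 stood apart from its group. Its signal was 224, against 92.1 to 97.3 in animals 54, 66 and 82, and the gap to the nearest animal took up 0.942 of the group's range. Of 25 groups of values tested in this way (5 genes in 5 groups), 1 stood out, and chance alone marks about 1 group in 20. Animal 73 was also the highest of its group for Oas2 (47.7), Oas3 (6.85), Oasl1 (43.99) and Oasl2 (81.1). Without it, Oas1a differed from WT by 0.033 ± 0.26 and from Trim24-/- by -2.04 ± 0.26 (limma adjusted p = 0.0136).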

How the results depend on the processing

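In Trim24-/- against WT livers at 5 weeks, 4 members were called; 2 were called with a pseudocount of 1 or 64 or over every probe set, and 1 in a fit of only the compared groups, with animals 54, 66 and 82 averaged as 1 replicate or with animals 1 and 8 averaged. Leaving out 1 array gave 0 to 4. Leaving out both animals 1 and 8, chosen after seeing the data, gave 0. In Trim24-/- Rara+/- against Trim24-/- livers, 2 were called; the count was 1 with quantile normalisation, median centring, a pseudocount of 64 or every probe set, 4 with array weights, and 0 with a pseudocount of 1, in a fit of only the compared groups, with either averaging, or without both animals 1 and 8. Leaving out 1 array gave 0 to 3. At 14 weeks, 0 were called, 1 with quantile normalisation or median centring and 2 among genes above the median level. Counts stayed at 0 in all 27 alternatives for Trim24-/- Rara+/- against WT and all 36 for the interaction. Of 27 alternatives for Trim24-/- against WT at 5 weeks, the call was lost in 3 for Oas1a (log2 1.65 to 2.27), 14 for Oasl1 (1.21 to 2.34) and 16 for Oasl2 (1.10 to 1.92), and in 7 of 26 for Oas3 (0.38 to 1.96), which the level filter left out. Estimates near 0 in Trim24-/- Rara+/- against WT turned negative for Oas2 and Oasl1 with array weights (-0.027 and -0.047), without WT animal 45 (-0.025 and -0.15) and without animal 73 (-0.042 and -0.047), and leaving out 1 array gave -0.042 to 0.27 for Oas2 and -0.15 to 0.21 for Oasl1. The causes were not tested. No paired analysis was possible because animal numbers are not shared between groups. Oas3 and the other Oas1 genes were too dim for their folds to be read apart from the pseudocount, and 4 or 5 arrays a group limit precision.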
